A study of Mus musculus with 15 samples.

Results

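Zmym3 and 8 genes of the LSD1-CoREST-HDAC complex were followed through loss and return of GDNF (glial cell line-derived neurotrophic factor) in cultured mouse spermatogonial stem cells. The 9 genes are Zmym3, Zmym2, Kdm1a, Rcor1, Rcor2, Rcor3, Hdac1, Hdac2 and Phf21a. Every probe set that the array's platform annotation assigns to one of these symbols was taken, each probe set apart, which gave 26 of the 45101 probe sets on the array, for 9 of 18193 genes named by 1 symbol. Zmym3 was chosen by its measured difference between withdrawal and maintained cultures, a large one, and the other genes because their proteins are found in complexes with its protein. The values of that contrast are therefore a description here and carry no test for any of the 26 probe sets. Total RNA came from germ cell cultures enriched for spermatogonial stem cells, set up from C57BL/6 male mice at 6 days of age and grown in defined serum-free medium with GDNF, GFRalpha1 and bFGF. GFRalpha1 is the co-receptor through which GDNF engages the RET tyrosine kinase, and bFGF is basic fibroblast growth factor. Maintained cultures had the factors throughout, withdrawal cultures had been without GDNF and GFRalpha1 for 18 h, and 3 replacement groups received both again after the 18 h, for 2, 4 or 8 h. The labels name no genotype, transgene or drug. They also mention no mock-handled group or group kept without factor for longer, so the return of the factors cannot be told apart from handling or added time.

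KDM1A, also named LSD1, is a nuclear amine oxidase that removes methyl groups from lysine 4 of histone H3, a mark of active promoters and enhancers. A CoREST protein, encoded by Rcor1, Rcor2 or Rcor3, ties it to the histone deacetylases HDAC1 and HDAC2 and lets it act on nucleosomes. PHF21A, also named BHC80, binds the unmethylated lysine 4 that the reaction leaves, and ZMYM2 and ZMYM3 are MYM-type zinc finger proteins that copurify with the complex, which factors such as REST bring to genes. In the testis, germ cell loss of Kdm1a is known to deplete spermatogonia, and mice without Zmym3 are known to have males that arrest in meiosis.

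Each of the 5 groups had 3 arrays, a number that limits the precision. Values are MAS5 signal in arbitrary units, and a log2 difference is the limma estimate on log2 of signal plus 16. Nothing in the labels ties the replicates to separate cultures, and the p-values therefore measure only how far these arrays spread, which may be technical. An exact test of 3 arrays against 3 cannot go below p = 0.1. Markers of the labelled cell type were present: all 12 germ cell genes on the array, among them Ddx4 and Dazl, passed the filter on dim signal. Their summed signal ran from 15090 to 18010 over the 15 arrays, a sum that hides opposite moves. After withdrawal 5 of their 22 probe sets, of Id4, Gfra1 and Ret, were lower at an adjusted limma p under 0.05. Another 2, of Zbtb16, were higher by the same rule, beside 2.08% lower and 2.34% higher over all tested probe sets. Of 17 fibroblast genes 16 passed as well, with sums of 12700 to 16000 at 8 h, so the filter alone does not settle the make-up of the cultures. Withdrawal replicate 3 stood apart in RNA quality, with an actin 3′ to 5′ signal ratio of 2.77, where the rest of the arrays ran from 1.1 to 1.75. Of 16 probe sets of 7 genes known to answer GDNF, such as Bcl6b, Etv5 and Egr2, 13 were lower after withdrawal at an adjusted limma p under 0.05. Over all tested probe sets 2.08% were. From withdrawal to 8 h of replacement 11 rose by the same rule, where 0.529% of all did. The list was chosen with earlier results of these data known, so its counts are a description and no test of the treatment. In RNA from a whole culture, fewer cells of a type and less RNA per cell cannot be told apart.

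Of the 26 probe sets, 24 passed the filter, which left out the dimmest 40% of the array. The 2 that did not are Rcor3 probe sets, 1443922_at at a signal of 6.3 to 34.7 and 1444364_at at 3 to 10.3 over the 15 arrays. Tests below were limma moderated tests, two-sided, with the Benjamini-Hochberg adjustment made over all 27022 probe sets that passed, and a probe set was called at an adjusted p under 0.05.

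Zmym3 had the highest signal after 18 h without GDNF and GFRalpha1 on 3 of its 4 probe sets, and it was lower at each later replacement time on those 3. The probe set with the highest mean, 1459818_x_at, read 106.6, 111.8 and 152.8 on the maintained arrays and 681.4, 873.4 and 902.1 on the withdrawal arrays. After replacement it read 658.2, 653.3 and 479.1 at 2 h, then 446.7, 365.5 and 640.7 at 4 h, and 196.1, 396.6 and 230.8 at 8 h. Every withdrawal array lay above every other array in the study, and every maintained array lay below. The group means with their SD (n = 3) were 124 ± 25.3 maintained, 819 ± 120 after withdrawal, 597 ± 102 at 2 h, 484 ± 141 at 4 h and 275 ± 107 at 8 h. In that order of levels, maintained and 8 h did not overlap and neither did 2 h and withdrawal, while 8 h overlapped 4 h and 4 h overlapped 2 h.

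The other 3 Zmym3 probe sets repeated the rise in signal from maintained to withdrawal arrays. On 1417794_at the maintained arrays read 153.2, 51.8 and 114.3 and the withdrawal arrays 602.3, 633.5 and 583.5. The same probe set then read 628.3, 538.1 and 353.4 at 2 h, 527.5, 260.4 and 292.3 at 4 h, and 202.9, 259.9 and 231.2 at 8 h. Replicate 1 of the 4 h group thus stayed near the withdrawal level while the other two had dropped to about the 8 h level, and all 8 h arrays lay above all maintained arrays.

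On 1455017_a_at the maintained arrays read 117.3, 103.3 and 113.7 and the withdrawal arrays 337.9, 449.4 and 361.7. Its values were 366.2, 434.5 and 219 at 2 h, 311.4, 189 and 184.3 at 4 h, and 189.2, 149.5 and 156.3 at 8 h. Replicate 1 of the 4 h group and replicate 3 of the 2 h group departed from their groups here in the same direction as on 1417794_at. The remaining probe set, 1447326_s_at, was the noisiest: maintained 236.9, 52.1 and 167.7, withdrawal 642.7, 541.8 and 281.3. It read 733.6, 767.9 and 353.2 at 2 h, 550.3, 225 and 293.6 at 4 h, and 241.8, 414.9 and 378.6 at 8 h. Its highest group was 2 h of replacement, not withdrawal, and its maintained arrays still lay below all its withdrawal and 8 h arrays.

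**Figure D1:**
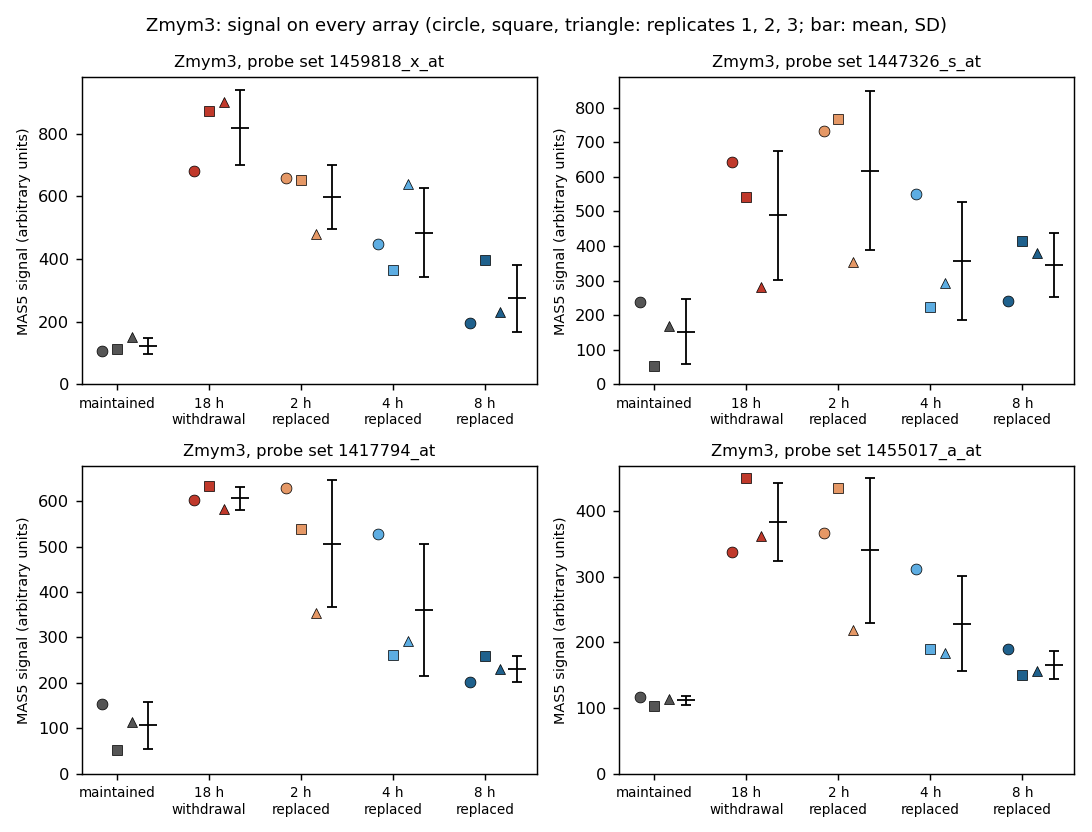
MAS5 signal of the 4 Zmym3 probe sets (vertical axes, from 0) in the 5 groups, with 1 point per array and a bar for the mean and SD of 3 arrays. On 1459818_x_at the withdrawal arrays sit between 681.4 and 902.1, above all others, and the 8 h arrays between 196.1 and 396.6, above the maintained arrays at 106.6 to 152.8.

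As log2 differences of withdrawal from maintained cultures, the 4 probe sets gave 2.58, 2.44, 1.70 and 1.64 (1459818_x_at, 1417794_at, 1447326_s_at and 1455017_a_at), that is 5.99, 5.44, 3.26 and 3.11-fold. These are the values that chose the gene, so no p is given. The difference remaining from maintained cultures at 2, 4 and 8 h was 2.13, 1.82 and 1.01 on 1459818_x_at, or 82.6%, 70.4% and 39.1% of the withdrawal difference on the log2 scale. It was 88.2%, 67.6% and 45.3% on 1417794_at and 87.4%, 55% and 30.6% on 1455017_a_at. On 1447326_s_at it was 119%, 73.2% and 74.2%, so this probe set showed no steady decline from 4 to 8 h. The suffixes bear on these values: by the array maker's naming, some probes of an x set also match other transcripts, an s set can match several transcripts or genes, and an a set matches alternative transcripts of 1 gene.

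The probe sets moved together between groups and less so within them. Over the 15 arrays, Pearson's r of 1459818_x_at was 0.911 with 1417794_at, 0.876 with 1455017_a_at and 0.723 with 1447326_s_at. After each group's mean was taken off, the same correlations were 0.27, 0.0976 and 0.249. The pair 1447326_s_at and 1417794_at kept r = 0.907 after the group means were removed, against 0.895 before, so these probe sets shared most of their array-to-array departures. The points of each correlation are the same 15 arrays and share their scaling.

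Whether Zmym3 changed while GDNF was being returned can be asked of the 9 replacement arrays. None of them entered the contrast that chose the gene, although the members were chosen with earlier results of these data known. From 2 h to 8 h of replacement, 1459818_x_at fell by 1.12 on the log2 scale (SE 0.245, 95% interval -1.65 to -0.60), from 597 to 275 in signal, with an adjusted p of 0.0455. Each of the 8 h arrays was below each of the 2 h arrays. The differences on the other Zmym3 probe sets were -1.05 on 1417794_at (adjusted p = 0.134), -0.93 on 1455017_a_at (adjusted p = 0.0732) and -0.77 on 1447326_s_at (adjusted p = 0.531). Of 25 other settings, 2 called 1417794_at and 5 called 1455017_a_at, with limma adjusted p up to 0.317 and 0.259. Array weights called both (adjusted p = 0.00918 and 0.00652), and raised the calls over all probe sets from 218 to 945. With only the groups compared 1417794_at was called (0.0344), and 1455017_a_at was called with quantile normalization (0.0493), with a common median (0.0413), and without 2 h replicate 3 (0.0475) or 4 h replicate 1 (0.0445). The groups did not overlap on 3 of the 4 probe sets, 1447326_s_at being the exception. Over all tested probe sets, 0.807% were called in this comparison and 0.181% were called lower, and in 22.7% the groups did not overlap. Of the calls over all probe sets 77.5% were higher at 8 h, and 52.2% when the arrays were shifted to a common median, which moved the median of all log2 differences from 0.0374 to -0.0915 and Zmym3 1459818_x_at to -1.25. The F test over all 3 replacement times gave an adjusted p of 0.0725 for 1459818_x_at, where 0.933% of probe sets were called, and an exact permutation test of F over the 9 arrays gave p = 0.05 (F = 6.36, 1680 arrangements, smallest possible p 0.00357). For 8 h against 2 h alone the exact two-sided permutation p was 0.1, the smallest it can give.

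The call on 1459818_x_at sat at the edge of the threshold. It held in 9 of 25 other settings, with an adjusted p from 0.00652 to 0.18 and a log2 difference from -1.41 to -0.93, always in the same direction. Left-out arrays that ended it were maintained replicates 1, 2 and 3 (adjusted p = 0.0535, 0.0591 and 0.0551), withdrawal replicates 1 and 2 (0.0527 and 0.0571), 2 h replicates 1, 2 and 3 (0.133, 0.152 and 0.101), 4 h replicate 1 (0.0521) and 8 h replicates 1 and 3 (0.173 and 0.18).

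Summed markers of somatic cells that such cultures can hold were higher at 8 h than at 2 h, opposite to Zmym3. Of 17 fibroblast genes on the array, 16 passed the filter. Their summed signal was 5038 to 8451 on the 2 h arrays, 14100 to 16830 at 4 h and 12700 to 16000 at 8 h, against 7710 to 9374 on maintained and 7478 to 12580 on withdrawal arrays. From 2 h to 8 h, 6 of 28 fibroblast probe sets rose, where 0.625% of all tested probe sets were called higher. Among the 6 were the collagen Col3a1 (1427883_a_at, log2 difference 1.63, adjusted p = 0.0128) and the matrix protein Postn (1.57, adjusted p = 0.0121). The summed germ cell signal was 16500 to 17220 at 2 h and 15090 to 16360 at 8 h. Of 12 Sertoli cell genes 9 passed the filter, and their sum was 578 to 744.4 at 2 h, 752.1 to 823.3 at 4 h and 906 to 964.6 at 8 h, against 652.5 to 791.8 on maintained and 771.5 to 858.7 on withdrawal arrays, with none of 12 probe sets called at 8 h against 2 h. Of 7 Leydig and peritubular cell genes 3 passed, with sums of 347.1 to 517.5 at 2 h, 541.1 to 695.7 at 4 h and 585.1 to 760.4 at 8 h, against 429.5 to 503.3 on maintained and 461.1 to 506.6 on withdrawal arrays. Of 5 Leydig and peritubular probe sets 1 rose from 2 h to 8 h, beside the same 0.625% over all. It was that of Star, which carries cholesterol into mitochondria (1418728_at, 0.96, adjusted p = 0.023). The sums of endothelial and blood cell genes, 398.7 to 643 at 2 h and 487.7 to 663 at 8 h, overlapped. No marker on these lists was at 0 on any array. The part of these cells in the values of Zmym3 and its partners was not tested.

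Against withdrawal, Zmym3 had log2 differences at 2 h of -0.45, -0.29, -0.21 and 0.33 (1459818_x_at, 1417794_at, 1455017_a_at and 1447326_s_at). At 4 h they were -0.77, -0.79, -0.74 and -0.46, and at 8 h -1.57, -1.34, -1.14 and -0.44, in the same order of probe sets. The withdrawal arrays helped to choose the gene, so these differences carry no p. Against maintained cultures, whose arrays also helped to choose it, Zmym3 at 8 h was higher by 1.01, 1.11, 0.50 and 1.26, and the groups did not overlap on any of the 4 probe sets, where 23.2% of all probe sets did not overlap.

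Zmym3 lies on chromosome X at 101404384 to 101421385 in GRCm38.p6, on the minus strand, and RefSeq start sites place 3 promoter windows of 300 bases there, each from 250 bases before a start to 50 after it. Phf21a, whose signal was higher after withdrawal too, lies on chromosome 2 at 92183751 to 92364667 on the plus strand and has 2 such windows. The GC-rich windows of both genes are shown because the signals of both were higher after withdrawal and lower at 8 h of replacement. Capitals mark the letters GGGCGG, known as a GC box, and the motif CCAAT, on either strand.
Zmym3, chrX:101419865-101420164, minus strand, GRCm38.p6: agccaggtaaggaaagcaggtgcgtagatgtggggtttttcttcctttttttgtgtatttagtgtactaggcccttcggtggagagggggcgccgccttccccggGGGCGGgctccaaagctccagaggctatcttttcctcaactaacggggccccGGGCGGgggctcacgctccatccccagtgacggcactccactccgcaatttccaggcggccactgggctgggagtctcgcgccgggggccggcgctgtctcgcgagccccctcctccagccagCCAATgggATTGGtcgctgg
Zmym3, chrX:101420173-101420472, minus strand, GRCm38.p6: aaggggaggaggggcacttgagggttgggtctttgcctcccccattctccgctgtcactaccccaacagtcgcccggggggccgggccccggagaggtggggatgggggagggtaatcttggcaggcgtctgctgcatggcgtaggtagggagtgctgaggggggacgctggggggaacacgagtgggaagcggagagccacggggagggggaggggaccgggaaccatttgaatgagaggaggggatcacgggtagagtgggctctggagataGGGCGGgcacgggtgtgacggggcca
Phf21a, chr2:92185233-92185532, plus strand, GRCm38.p6: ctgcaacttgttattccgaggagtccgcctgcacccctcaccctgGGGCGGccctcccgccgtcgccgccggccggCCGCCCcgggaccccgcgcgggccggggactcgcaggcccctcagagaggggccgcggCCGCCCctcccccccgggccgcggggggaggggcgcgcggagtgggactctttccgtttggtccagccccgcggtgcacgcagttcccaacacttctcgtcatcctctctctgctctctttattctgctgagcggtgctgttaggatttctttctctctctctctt

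The first Zmym3 window has 64% G and C, 2 GC boxes and 2 CCAAT motifs. The second has 67% G and C and 1 GC box, and the third, chrX:101420636-101420935, has 51% and neither motif. The first Phf21a window has 70% and 3 GC boxes, and the second, chr2:92221222-92221521, has 33.3% and neither. The median over all 32851 RefSeq mouse windows of the same length was 52.7%. On both strands, 35.7% of all windows hold GGGCGG and 37.4% hold CCAAT. Also searched were CACGTG (an E-box, in 7.15% of all windows), GTAAACA (a FOXO site, 3.65%), TGACGTCA (a cyclic AMP response element, 1.79%), CCGGAAG (an ETS site, 8.86%) and TGACTCA (an AP-1 site, 5.2%), and none of these was in a Zmym3 or Phf21a window. Over the 12 windows found for 8 of the 9 genes (Hdac1 had none), GC boxes were in 8, CCAAT in 4 and an E-box in 1, that of Rcor2. The motifs share no letters with each other in the sequences shown. A match describes letters in these windows and is not a measured binding site.

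Phf21a, the reader of unmethylated histone H3 lysine 4, had its highest mean signal after withdrawal on all 4 of its probe sets, as Zmym3 did on 3 of 4. Its probe set 1418391_at read 220.1, 308.2 and 237.9 on maintained arrays and 421.8, 414.3 and 710.7 on withdrawal arrays. It read 400.3, 386.6 and 363.7 at 2 h, 413.1, 349 and 358.7 at 4 h, and 221.4, 299.9 and 236.4 at 8 h. All withdrawal arrays lay above all others, and the 8 h arrays had the same range as the maintained arrays to within 10 units at each end. The highest value belongs to withdrawal replicate 3, the array with the high actin ratio.

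Probe set 1418390_at read 263.5, 246.7 and 279.1 on maintained arrays and 429.8, 462.4 and 650.6 on withdrawal arrays. It read 433, 380.2 and 382.2 at 2 h, 347.5, 216.7 and 276 at 4 h, and 275.4, 355 and 216 at 8 h. The 2 h values touched the withdrawal range, and from 4 h the arrays overlapped the maintained ones. The dimmer 1441145_at read 46.8, 44.8 and 53.8 on maintained arrays, 103, 89.7 and 114.8 on withdrawal arrays, and 69.2, 88.4 and 68.1 at 8 h. It stayed above the maintained arrays at 8 h, and 1435619_at, at 78.9 to 172.6 over the 15 arrays, overlapped between maintained and withdrawal arrays.

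The log2 differences of Phf21a between withdrawal and maintained cultures were 0.94 on 1418391_at, 0.90 on 1418390_at, 0.88 on 1441145_at and 0.36 on 1435619_at. Without withdrawal replicate 3 the first 3 were 0.69, 0.73 and 0.80. These values are a description and carry no test. From withdrawal to 8 h, 1418391_at fell by 0.95 on the log2 scale (SE 0.191, 95% interval -1.36 to -0.55, adjusted p = 0.0281), a comparison that shares the withdrawal arrays with the one above. This call was lost with only the groups compared (adjusted p = 0.185) and without 8 h replicate 1, 2 or 3 (adjusted p = 0.125, 0.0507 and 0.117), and the difference ran from -1.08 to -0.70 over all left-out arrays. The other Phf21a differences at 8 h were -0.83 on 1418390_at (adjusted p = 0.0565), -0.38 on 1441145_at (0.443) and -0.36 on 1435619_at (0.489). At 4 h 1418390_at stood at -0.84 (adjusted p = 0.0555). From 2 h to 8 h the 4 differences were -0.58, -0.50, -0.08 and -0.27 (1418391_at, 1418390_at, 1441145_at and 1435619_at), with adjusted p-values of 0.195, 0.299, 0.923 and 0.652. Of 25 other settings only array weights called the first (-0.61, adjusted p = 0.0183), and its highest adjusted p was 0.449.

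Kdm1a, the demethylase itself, had its highest mean after withdrawal on both probe sets. On 1426761_at the maintained arrays read 436.7, 378.5 and 435.5 and the withdrawal arrays 591.5, 572.4 and 551.3. At 8 h it read 467.4, 527.2 and 427. On 1426762_s_at the maintained arrays read 1179.9, 1323 and 1370.4 and the withdrawal arrays 1515.9, 1624.3 and 2106.1, the last of these again replicate 3. On both, withdrawal and maintained arrays did not overlap, as was so for 23.8% of all tested probe sets. The log2 differences were 0.44 and 0.42, given as a description. With quantile normalization 1426762_s_at stood at 0.54. From withdrawal to 8 h the differences were -0.27 (1426761_at, 95% interval -0.54 to 0.00429, adjusted p = 0.396) and -0.34 (1426762_s_at, adjusted p = 0.316). From 2 h to 8 h they were -0.10 (95% interval -0.37 to 0.17, adjusted p = 0.828) and -0.14 (-0.44 to 0.16, adjusted p = 0.762).

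**Figure D2:**
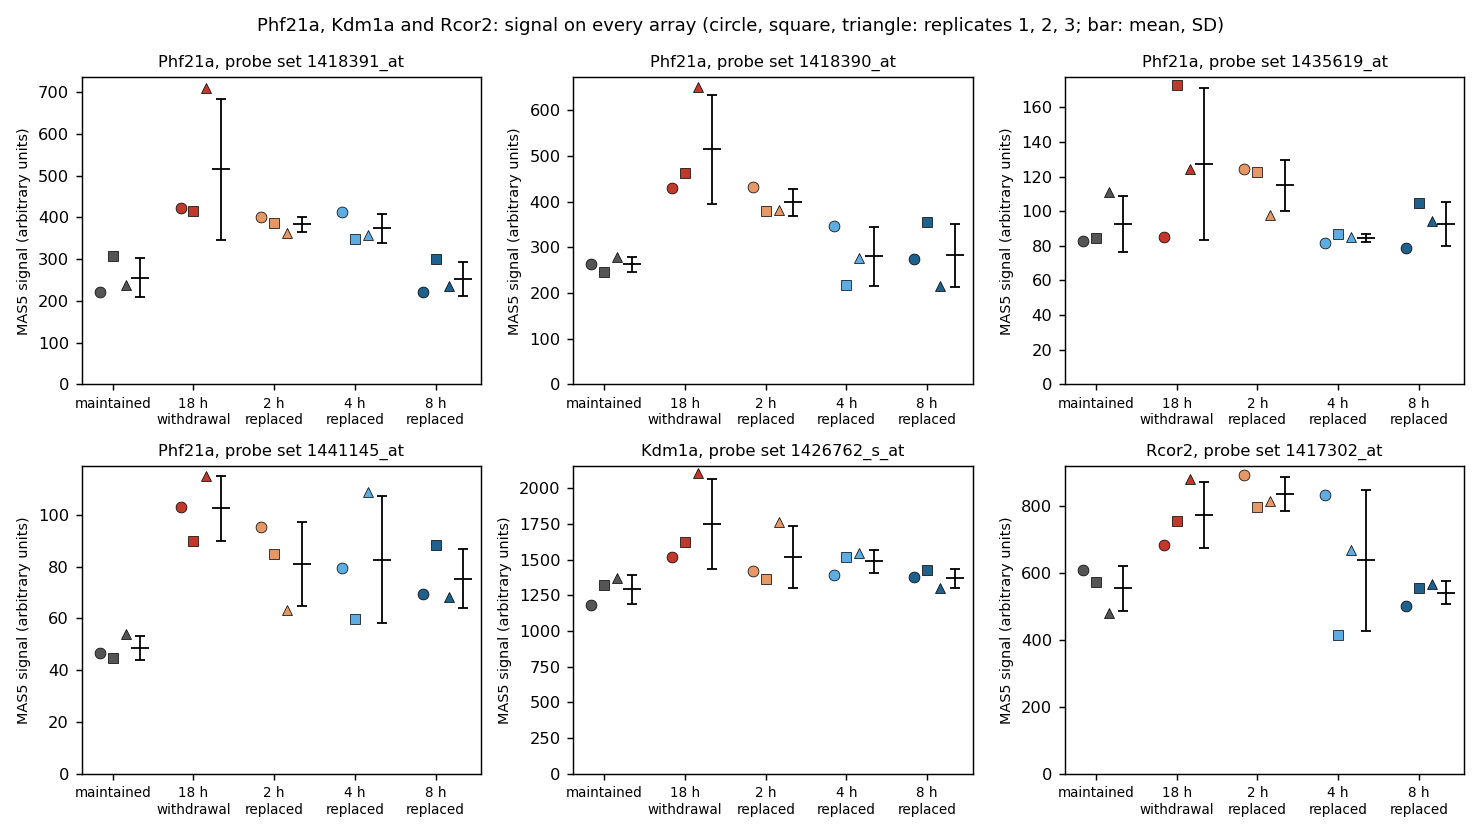
MAS5 signal (vertical axes, from 0) of the 4 Phf21a probe sets, Kdm1a 1426762_s_at and Rcor2 in the 5 groups, with 1 point per array and a bar for the mean and SD of 3 arrays. Withdrawal replicate 3, a triangle, is the highest withdrawal array in every panel except Phf21a 1435619_at, and Phf21a 1418391_at at 8 h (221.4 to 299.9) lies at the maintained level.

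The 3 CoREST genes, whose proteins bridge the demethylase and the deacetylases, did not move as 1 group. Rcor2 read 611.1, 572.7 and 479.9 on maintained arrays and 685.3, 755.7 and 881.3 on withdrawal arrays. It read 895.7, 799.5 and 815.9 at 2 h, 833.7, 415.1 and 670.2 at 4 h, and 503.1, 554.8 and 567.1 at 8 h. Its highest group mean was therefore at 2 h of replacement, and its 8 h arrays lay below all 2 h and all withdrawal arrays (19.2% of all tested probe sets did not overlap between 8 h and withdrawal). Withdrawal minus maintained was 0.47 on the log2 scale, 8 h minus 2 h was -0.61 (95% interval -1.02 to -0.20, adjusted p = 0.174), and 8 h minus withdrawal was -0.50 (adjusted p = 0.275). The difference of 8 h from 2 h was called in 2 of 25 other settings, with limma adjusted p up to 0.381. These were only the groups compared (adjusted p = 0.028) and array weights (adjusted p = 0.0379), which also raised the calls over all probe sets from 218 to 369 and 945.

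Rcor1 had small differences that varied between its 3 probe sets. After withdrawal they were 0.37 on 1437545_at, 0.26 on 1434336_s_at and -0.10 on 1454932_at, and the arrays overlapped on all of them. From 2 h to 8 h the 3 were 0.36, 0.40 and 0.53, opposite in sign to Zmym3, with adjusted p-values of 0.563, 0.472 and 0.49. Its signal was 119.1 to 357.9 on the brightest probe set, the highest value being 4 h replicate 3.

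Rcor3 was dim on every probe set. Probe set 1432232_at read 69.6, 76.8 and 71.2 on maintained arrays and 17.8, 58.5 and 9.3 on withdrawal arrays, a log2 difference of -1.15, the only Rcor3 or Rcor1 difference beyond 1 in size. At 8 h it read 61.3, 48.5 and 59.6, and the difference from withdrawal was 0.85 (adjusted p = 0.259). The other 3 tested Rcor3 probe sets were higher after withdrawal, by 0.60 on 1428343_at, 0.36 on 1425352_at and 0.17 on 1428342_at. The probe sets of Rcor3 thus gave opposite signs, and 2 of the 3 withdrawal arrays on 1432232_at lay under the filter's signal of 30.5.

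The deacetylase genes Hdac1 and Hdac2 were bright, apart from Hdac2 1439704_at, and nearly level, apart from Hdac2 1449080_at. Hdac1 read 1338.9, 1215.5 and 1380.6 on maintained arrays and 1149.3, 1114.3 and 1187.8 on withdrawal arrays. At 8 h it read 1097.7, 1106.3 and 1129.7. Withdrawal and 8 h arrays lay below the maintained ones, with log2 differences of -0.19 and -0.23 (at 8 h, 95% interval -0.49 to 0.0201, adjusted p = 0.385). Hdac2 ranged from 1456.3 to 2050.5 on 1445684_s_at, with log2 differences of -0.08 after withdrawal and -0.09 from 2 h to 8 h (95% interval -0.38 to 0.20, adjusted p = 0.87). On 1449080_at it read 960.6, 1026.4 and 1012.7 at 2 h and 747.4, 807.3 and 710 at 8 h. These groups did not overlap, as in 22.7% of all tested probe sets, and the difference was -0.40 (95% interval -0.66 to -0.14, adjusted p = 0.161). From withdrawal to 2 h 1449080_at stood at 0.30 (95% interval 0.04 to 0.56, adjusted p = 0.642). The dim Hdac2 probe set 1439704_at, at 33.6 to 65.4, stood at 0.16 after withdrawal.

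Zmym2, the nearest relative of Zmym3 among the members, did not share its pattern. Its bright probe set 1452970_at read 887.9, 1006 and 1032.8 on maintained arrays and 1144.3, 1124.5 and 850.7 on withdrawal arrays. At 8 h it read 1008.3, 1043.5 and 859.5, and all neighbouring groups overlapped. The log2 difference was 0.08 after withdrawal and 0.14 from 2 h to 8 h (95% interval -0.15 to 0.43, adjusted p = 0.746). The dim 1428941_at, at 18.2 to 77.7, gave 0.23 after withdrawal and -0.30 from 2 h to 8 h (adjusted p = 0.799).

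Over the whole set, 7 of the 24 probe sets were past the threshold after withdrawal, all higher, 4 of Zmym3 and 3 of Phf21a, where 4.42% of all tested probe sets were called and 2.34% were called higher. Higher calls made up 52.9% of all calls, and 31.3% with a common median. These counts rest on the contrast that chose Zmym3 and are given only as a description. The median log2 difference was 0.37 over the 24 and 0.31 over the 20 that are not Zmym3, beside 0.06 over all tested probe sets. The count was 4 without maintained replicate 2 and 3 without maintained replicate 3, and 3 when only the groups compared were fitted. Without withdrawal replicate 3, Phf21a 1418390_at and 1441145_at left that count. From withdrawal to 8 h, 4 of 24 were past the threshold, all lower, where 1.03% of all tested probe sets were called and 0.5% were called lower, and the median was -0.19 beside 0.02 over all. Zmym3 gave 3 of these 4 on arrays that helped to choose it, so this count too is only a description. Over all probe sets 51.4% of the calls were higher, and 41.4% with a common median. That count was 2 without withdrawal replicate 1 or 2, 1 without 8 h replicate 2, and 0 without 8 h replicate 1 or 3. Of the 20 probe sets other than Zmym3, 1 was called there, Phf21a 1418391_at. None of those 20 was called at 2 h or 4 h against withdrawal, at 8 h against maintained cultures or at 8 h against 2 h. In the same order, 0.0407%, 0.877%, 0.192% and 0.807% of all tested probe sets were called. Of the 20, 1, 3, 2 and 5 were at an unadjusted limma p under 0.05, as were 7.37%, 16.5%, 14.3% and 12.4% of all tested probe sets.

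**Figure D3:**
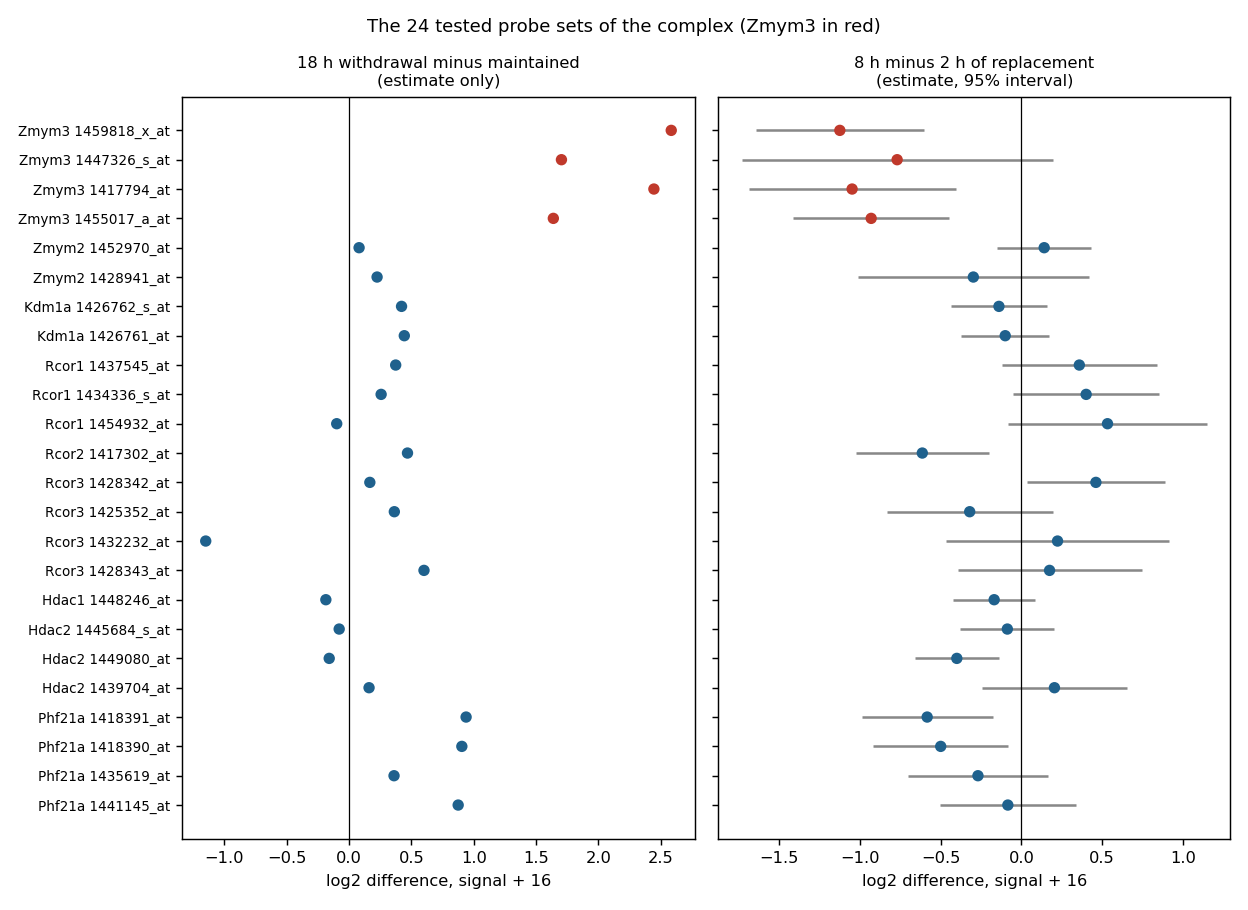
Log2 differences (horizontal axes, log2 of signal plus 16) of the 24 tested probe sets for withdrawal minus maintained, as estimates only, and for 8 h minus 2 h of replacement, with 95% intervals. The 4 Zmym3 points lie at 1.64 to 2.58 on the left, to the right of every partner, and at -1.12 to -0.77 on the right, to the left of every partner.

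Genes that work beside the complex were counted by list, each probe set apart. Among further CoREST and BHC partners, such as HMG20 proteins, CTBP corepressors and REST, 1 of 25 probe sets rose after withdrawal and 1 fell. Over all tested probe sets 2.34% were called higher and 2.08% lower. The one that rose was Gse1, a proline-rich complex subunit (log2 difference 0.86, adjusted p = 0.0113). The one that fell was Ctbp2, a corepressor (-0.90, adjusted p = 0.0172). The median of the list was 0.35, beside 0.06 over all tested probe sets. None of the 25 was called in the other 5 comparisons, where 0.0407% to 1.03% of all tested probe sets were. None of the 7 probe sets of Zmym1, Zmym4 and the other MYM zinc finger genes was called after withdrawal, nor were the 1 tested of Hdac3 and Hdac8 and the 2 of the MiDAC complex.

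The NuRD complex, the SIN3 complex and the NCOR and SMRT complex, which also hold histone deacetylases, had 1 call each after withdrawal. For the NuRD and SIN3 probe sets this share lay near the 4.42% called over all probe sets. In NuRD, a remodelling and deacetylase complex, 1 of 29 probe sets rose after withdrawal, that of the subunit Mta3 (0.71, adjusted p = 0.0441). In the SIN3 complex 1 of 27 rose, that of Ing2, which binds trimethylated lysine 4 (0.55, adjusted p = 0.0223). It was also the only one to fall from 2 h to 8 h (-0.57, adjusted p = 0.0491), where 0.181% of all tested probe sets were called lower. Of 7 probe sets of the NCOR and SMRT corepressor complex, which holds HDAC3, the one of Tbl1x rose (0.43, adjusted p = 0.0415).

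Among enzymes that act on the same lysine, 2 of 15 probe sets of the demethylases other than Kdm1a rose after withdrawal, Kdm5a (1.16, adjusted p = 0.0162) and Kdm5b (0.72, adjusted p = 0.0112), both removers of the higher methylation states, where 2.34% of all probe sets were called higher. The median over the 15 after withdrawal was 0.13, beside 0.06 over all tested probe sets. The same Kdm5a probe set, 1437106_at, fell from withdrawal to 8 h (-1.11, adjusted p = 0.0468), from a signal of 545 to 236. That comparison shares the withdrawal arrays with the one that named the probe set. Of 21 probe sets of lysine 4 methyltransferases and their core subunits, 1 rose after withdrawal, that of Kmt2c (0.53, adjusted p = 0.0474). Of 12 probe sets of neuronal genes known as REST targets, none rose and 2 fell after withdrawal, where 2.08% of all tested probe sets were called lower. The 2 were those of the neurofilament Nefl (-1.70, adjusted p = 0.000177) and the granin Chga (-1.27, adjusted p = 0.00654). Nefl rose from withdrawal to 4 h (0.92, adjusted p = 0.0359) and to 8 h (0.88, adjusted p = 0.0358), comparisons that also share the withdrawal arrays. Its group means were 203 maintained, 51.7 after withdrawal and 110 at 8 h.

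The position of Zmym3 on chromosome X was set against its neighbours. Of the 5 protein-coding genes on each side of it, 8 had probe sets on the array and 5 had 1 or more that passed the filter, with 13 probe sets in all. After withdrawal 2 of the 13 rose, where 2.34% of all tested probe sets were called higher. They were 1 of 5 for Ogt, the enzyme that attaches O-linked N-acetylglucosamine (1436780_at, 1.21, adjusted p = 0.00625), and 1 of 4 for Nono, an RNA-binding protein (1431239_at, 0.80, adjusted p = 0.0043). The single probe sets of Med12 and Itgb1bp2 stood at 0.20 and 0.80, those of Taf1 at -0.39 and 0.01, and none of these was called. The median over the 13 was 0.47, beside 0.06 over all probe sets. None of the 13 was called from 2 h to 8 h, where 0.807% of all tested probe sets were.

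Over the 15 arrays, the named probe sets whose log2 signal was most like that of Zmym3 1459818_x_at, by Pearson's r among 22868 tested probe sets with 1 gene symbol, were those of Rragd (r = 0.982), Bnc2 (0.964), Camk2n1 (0.964), Igfbp5 (0.951) and Ighm (0.945). Rragd, which encodes a Rag GTPase of the amino acid response, had group means of 257 maintained, 1146 after withdrawal and 465 at 8 h. Camk2n1, an inhibitor of CaM kinase II, had means of 152, 875 and 281 in the same groups. By Spearman's rank correlation 4 of these 5 stayed among the 5 most alike. The most opposite were the chemokine receptor Cxcr4 (r = -0.963), the inhibitor of DNA binding Id4 (-0.939), Kdelr3 (-0.937), Lix1l (-0.936) and Castor1 (-0.935). Cxcr4 had means of 393 maintained, 77.1 after withdrawal and 207 at 8 h. All arrays share the 5 group means, so these correlations mainly restate them.

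Of the complex itself, the probe set of another member closest to Zmym3 1459818_x_at was Phf21a 1441145_at (r = 0.892, rank 48 of 22868), followed by Kdm1a 1426761_at (0.833, rank 141) and Phf21a 1418391_at (0.826, rank 170). Rcor2 stood at 0.656, and the bright probe sets of Hdac1 and Hdac2 at -0.355 and -0.133 (1448246_at and 1445684_s_at). Zmym2 stood at 0.139 on 1452970_at. With group means taken off, Phf21a 1441145_at kept r = 0.809, while Phf21a 1418391_at and Kdm1a 1426761_at had 0.391 and 0.547.

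**Figure D4:**
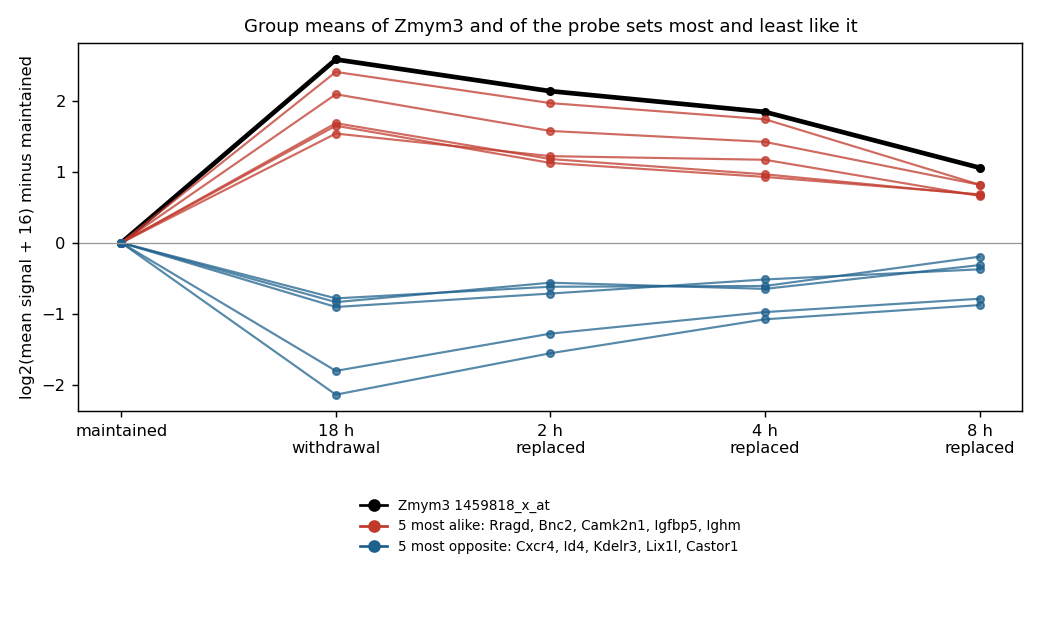
Log2 of mean signal plus 16, minus the maintained group (vertical axis), in the 5 groups for Zmym3 1459818_x_at (black), the 5 probe sets most like it (red) and the 5 most opposite (blue), with 1 point per group mean. The red lines are highest after withdrawal and above 0 at 8 h, as with Rragd at 257, 1146 and 465, and the blue lines are lowest after withdrawal, as with Cxcr4 at 393, 77.1 and 207.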

How the data were processed

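RNA of 15 samples was measured on single-colour Affymetrix arrays, 3 per group, and each sample was grouped by its title. Per the submitters' processing notes, the authors used MAS5, and the deposited values are the resulting probe set intensity, not log-transformed. Chip, MAS5 version and scaling target were not given in the sources used here. The trimmed mean of the values was 150 on every array, so the authors had scaled them, and each value is relative to its array. The median signal was 42.5 to 55.8 per array. The small number of arrays limits the precision, and the standard error of a log2 difference had a median of 0.21.

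A constant of 16 was added before log2, which draws dim differences towards 0. The 64 control probe sets and the dimmest 40% by mean log2 value (below a signal near 30.5) were not tested, and 27022 were. The limma model (limma 3.58.1, R 4.3.3) held all 5 groups, with a variance trend and 10 residual degrees of freedom, and the Benjamini-Hochberg adjustment ran over the 27022. The code was tested on simulated data. The 6 comparisons were withdrawal against maintained, each replacement time against withdrawal, and 8 h against maintained and against 2 h. Probe sets carry the platform annotation's symbols, and all 9 were found in the RefSeq gene table (GRCm38.p6), used for positions, neighbours and promoter windows.

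The members and lists were chosen with earlier results of these data known. The genes named were every member probe set, the 5 probe sets most alike and the 5 most opposite to Zmym3, up to 3 called probe sets each way per list and comparison, and the genes beside Zmym3. Alternatives were the constant (1, 64), the filter (20%, none), quantile normalization, a shift to a common median, no variance trend, array weights, a replicate block, only the groups compared, Spearman's correlation, and leaving out each array. Replicate numbers were checked as pairs: over 30 pairs of arrays with the same number, the correlation of deviations from group means had a median of 0.0281, and 9 were over 0.1, so the numbers were not treated as pairing the samples.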

Additional observations from a re-analysis of the deposited data

Results flagged for a closer look

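Zmym3 1459818_x_at was called lower at 8 h than at 2 h of replacement, at the edge of the threshold. Its difference from withdrawal was -0.45 at 2 h and -1.57 at 8 h on the log2 scale. The difference between these was tested as 8 h minus 2 h, at -1.12 with a limma adjusted p of 0.0455. Over 25 alternatives that p ran from 0.00652 to 0.18, and the call held in 9. The limma F test over the 3 replacement times was not past the threshold (adjusted p = 0.0725), and an exact permutation test of F gave p = 0.05. The other Zmym3 probe sets were not called at 8 h against 2 h. The value was lower at 8 h in 3 of 3 arrays than in any 2 h array, and 22.7% of all tested probe sets did not overlap either. The summed fibroblast marker signal was 5038 to 8451 at 2 h and 12700 to 16000 at 8 h, that of Sertoli cell markers 578 to 744.4 and 906 to 964.6, and that of Leydig and peritubular cell markers 347.1 to 517.5 and 585.1 to 760.4. Their part in the difference was not tested.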

How the results depend on the processing

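Zmym3 kept its direction on all 4 probe sets after withdrawal, at 8 h against withdrawal and at 8 h against 2 h, under each of 25 alternatives, 15 of which left out an array. Of 74 member differences checked, 61 never changed sign. The number of member probe sets past the threshold moved as follows. After withdrawal (7), fitting only the groups compared gave 3, and leaving out an array gave 3 to 9. At 4 h against withdrawal (0), a constant of 64 gave 1, quantile normalization 1, array weights 3, and left-out arrays 0 to 2. At 8 h against withdrawal (4), only the groups compared gave 1 and left-out arrays 0 to 5. At 8 h against maintained (0), array weights gave 2. At 8 h against 2 h (1), it was 0 with a constant of 1, no filter, the dimmest 20% left out, no variance trend, and the replicate block (Zmym3 1459818_x_at then -1.12, adjusted p = 0.0562), 2 with quantile normalization or a common median, 6 with array weights, 3 with only the groups compared, and 0 to 1 with left-out arrays. The replicate block changed no other member count, and 7 of 15 arrays were closest to their own number. The cause of these changes was not tested. Over all probe sets, the calls after withdrawal (1195) were 200 with only the groups compared and 3610 with array weights. At 2 h (11) they were 0 and 71, at 4 h (237) 4 and 2354, at 8 h (278) 8 and 1433, and at 8 h against 2 h (218) 369 and 945, in the same order. At 8 h against maintained (52), array weights gave 1442 and no variance trend 25. No filter, quantile normalization and no trend gave 94, 358 and 113 at 4 h. Quantile normalization gave 422 at 8 h against withdrawal, and no filter and a common median gave 144 and 136 at 8 h against 2 h. Over left-out arrays the calls ran from 488 to 1378 after withdrawal, 6 to 13 at 2 h, 21 to 645 at 4 h, 43 to 299 at 8 h, 4 to 135 at 8 h against maintained and 15 to 449 at 8 h against 2 h. At 8 h against maintained, 46.2% of calls were higher, 32% with quantile normalization and 20.9% with a common median, where the median of all differences moved from 0.0784 to -0.0671. At 4 h, 70% were higher and 90.4% with a common median. Uncalled differences near 0 changed sign. With quantile normalization these were Hdac2 1445684_s_at after withdrawal (0.0555) and at 4 h (-0.0737), Rcor1 1437545_at (-0.0112) and Rcor3 1428342_at (-0.00284) at 8 h against withdrawal, and Zmym2 1452970_at at 8 h against maintained (0.0979). With a common median they were Zmym2 after withdrawal (-0.0122), Hdac2 at 2 h (0.0707), Hdac1 at 4 h (0.0169), Rcor1 (-0.039) and Rcor3 (-0.00186) at 8 h, and Kdm1a 1426762_s_at at 8 h against maintained (-0.0608). With array weights they were Hdac2 at 4 h (-0.0252), and Rcor2 (0.0443) and Phf21a 1418391_at (0.0143) at 8 h against maintained. Over left-out arrays, Hdac2 1445684_s_at ran from -0.167 to 0.056 after withdrawal, from -0.14 to 0.0827 at 2 h and from -0.094 to 0.129 at 4 h. Hdac1 ran from -0.172 to 0.0272 at 4 h. At 2 h Zmym3 1447326_s_at ran from -0.0126 to 0.681 and 1455017_a_at from -0.403 to 0.0666. At 8 h against withdrawal Rcor1 ran from -0.113 to 0.174 and Rcor3 from -0.0743 to 0.123, and at 8 h against maintained Rcor2 ran from -0.126 to 0.0438, Zmym2 from -0.0747 to 0.0742 and Phf21a from -0.135 to 0.122. In the descriptive count after withdrawal, Kdm1a 1426762_s_at was past the threshold with quantile normalization (0.539). Signals near the added constant, as with Rcor3, give differences drawn towards 0.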
